A study of Mus musculus with 16 samples.

Results

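Padi2, a gene of a protein-modifying enzyme enriched in oligodendrocytes, was examined beside 8 genes of the myelin sheath in whole brain of Tecpr2 ki/ki mice. The 9 genes were listed by name (Padi2, Mbp, Mog, Mag, Cnp, Mobp, Mal, Cldn11 and Ugt8a), and all 9 of the 55404 genes in the table were found by matching Ensembl identifiers to symbols. Padi2 was chosen by its own values, because it had been seen to be higher in Tecpr2 ki/ki mice in these samples, and the myelin genes were set beside it with results of the same mice known. The differences between genotypes in the 9 genes are therefore given as a description, with intervals and without a test. The study compared 8 Tecpr2 ki/ki mice, homozygous for the L1152fs frameshift knocked into Tecpr2, with 8 wt/wt mice that carry the unedited gene. All mice were 5 months old, untreated and, as the study states, male. The allele was made by genome editing in zygotes of the strain C57BL/6J, is carried in the germline, and each library was made from the brain of 1 mouse. Each library carried the Tecpr2 level of its genotype, at 274 to 320 in Tecpr2 ki/ki and 928 to 1002 in wt/wt mice.

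Myelin is the membrane that oligodendrocytes wrap around axons of the central nervous system to speed conduction. It is held together by a small set of abundant proteins and by lipids rich in galactose. Padi2 encodes a peptidylarginine deiminase, an enzyme that needs calcium and converts arginine in proteins to citrulline. This conversion takes away a positive charge. Myelin basic protein, the product of Mbp, is its best known substrate in myelin, and the astrocyte filament proteins encoded by Gfap and Vim are others. Mobp encodes a small basic protein of compact myelin. Mog and Mag encode immunoglobulin-type proteins of the sheath surface, the former on its outside and the latter next to the axon. Cnp encodes the phosphodiesterase CNPase, which is found in the cytoplasm-filled parts of myelin and marks oligodendrocytes in histology. Mal and Cldn11 encode membrane proteins, a raft protein and the claudin of myelin tight junctions. Ugt8a encodes the enzyme that makes galactosylceramide.

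The deposited values are normalized, rounded whole numbers per gene, and they add up to between 11964284 and 12252324 in a mouse. From the steps between low values, the depth on genes was estimated at 9.23 to 14.26 megareads (median 11.96) for Tecpr2 ki/ki and at 10.09 to 15.39 megareads (median 13.14) for wt/wt mice. Genes of the cell types of brain were present in every library. The summed value of 6 neuron markers was 36800 to 39410 in Tecpr2 ki/ki and 36850 to 40640 in wt/wt mice. Of the genes of peripheral myelin made by Schwann cells, Pmp2 reached at most 1 in any mouse. In bulk RNA, fewer cells of a type and less RNA per cell cannot be told apart. Which cells held the Padi2 RNA was not measured either.

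Promoter sequences are shown for Padi2, and for 3 of the myelin genes whose levels correlated positively with each other between mice. They are the bases from 250 to 51 before the start that RefSeq gives (build GRCm38.p6), 5′ to 3′ on the strand of the gene, at chr4:140906110-140906309 on the plus strand for Padi2, chr11:100574689-100574888 on the plus strand for Cnp, chr7:30914973-30915172 on the minus strand for Mag (the most upstream of 3 starts) and chr9:120149492-120149691 on the plus strand for Mobp. None of these windows overlaps an annotated exon of its gene. Capitals mark letters of 3 motifs, searched on both strands. ACAAAG is the core that SOX factors such as SOX10 bind, and GGGCGG is the GC box. CTGGNAC, called the MYRF core here, is a loose form of the motif of the myelin regulator MYRF, with any base allowed at N.
Padi2: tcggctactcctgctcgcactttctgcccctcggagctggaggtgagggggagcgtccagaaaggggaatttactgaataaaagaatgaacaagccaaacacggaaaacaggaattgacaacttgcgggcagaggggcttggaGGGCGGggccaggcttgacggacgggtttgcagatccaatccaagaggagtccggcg
Cnp: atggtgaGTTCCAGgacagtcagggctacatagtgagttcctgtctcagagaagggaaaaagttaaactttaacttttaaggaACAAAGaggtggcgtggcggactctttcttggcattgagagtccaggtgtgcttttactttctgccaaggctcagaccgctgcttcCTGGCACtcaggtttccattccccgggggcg
Mag: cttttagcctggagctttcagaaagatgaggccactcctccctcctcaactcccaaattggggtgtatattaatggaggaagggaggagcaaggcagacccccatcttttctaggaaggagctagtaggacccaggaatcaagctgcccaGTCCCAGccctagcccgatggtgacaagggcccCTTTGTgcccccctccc
Mobp: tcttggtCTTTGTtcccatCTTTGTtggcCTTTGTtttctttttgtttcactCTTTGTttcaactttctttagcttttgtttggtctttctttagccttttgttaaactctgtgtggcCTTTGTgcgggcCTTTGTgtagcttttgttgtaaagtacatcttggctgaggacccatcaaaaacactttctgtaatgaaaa

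Of the 9 genes, 8 had an entry in the promoter table, and counts were made over the 250 bases before each start. The promoters of Padi2 and Ugt8a each held no SOX core, no MYRF core and 3 GC boxes, 1 of those of Padi2 lying 107 bases before the start in the stretch shown. The Mobp promoter held 6 SOX cores, all in the stretch shown, from 243 to 120 bases before the start, and no MYRF core. Cnp held 1 SOX core, 2 MYRF cores and 2 GC boxes. Mag, at its most upstream start, held 1 SOX core and 2 MYRF cores, and Mog held 1 MYRF core. Mal and Cldn11 held none of the motifs. Among all 32851 promoters of the same length, 16.5% held a SOX core, 16.1% a MYRF core and 32.7% a GC box. The E-box CANNTG, which OLIG2 and many other factors bind, occurred in 66.2% of all promoters, and in those of Cnp, Ugt8a and the other starts of Mag, but not in those of Padi2, Mog, Mobp, Mal and Cldn11. None of the motifs contains another. GC content was 61.6% for Padi2 and 40.8% for Mobp, against a median of 52.4% over all promoters. These matches describe letters, and binding was not measured.

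Padi2, chosen for its higher level in Tecpr2 ki/ki mice, was the only member whose genotypes did not overlap. Its value was 429 at the lowest, 456.5 at the median and 486 at the highest in the 8 Tecpr2 ki/ki mice, and 348, 374 and 409 in the 8 wt/wt mice. All 8 Tecpr2 ki/ki mice were above all 8 wt/wt mice, the nearest being Tecpr2 ki/ki mouse 3 at 429 and wt/wt mouse 2 at 409. Padi2 averaged 456 ± 18.9 (SD, n = 8) for Tecpr2 ki/ki against 376.5 ± 23.2 (SD, n = 8) for wt/wt. On the log2(value + 1) scale this is a fold change of 0.28 (standard error, SE, 0.0418, 95% interval 0.19 to 0.36), or 21.2% more, with an interval of 14.3% to 28.4%. The scale understates changes of low values. Leaving out any 1 mouse gave log2 fold changes from 0.26 to 0.29.

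**Figure D1:**
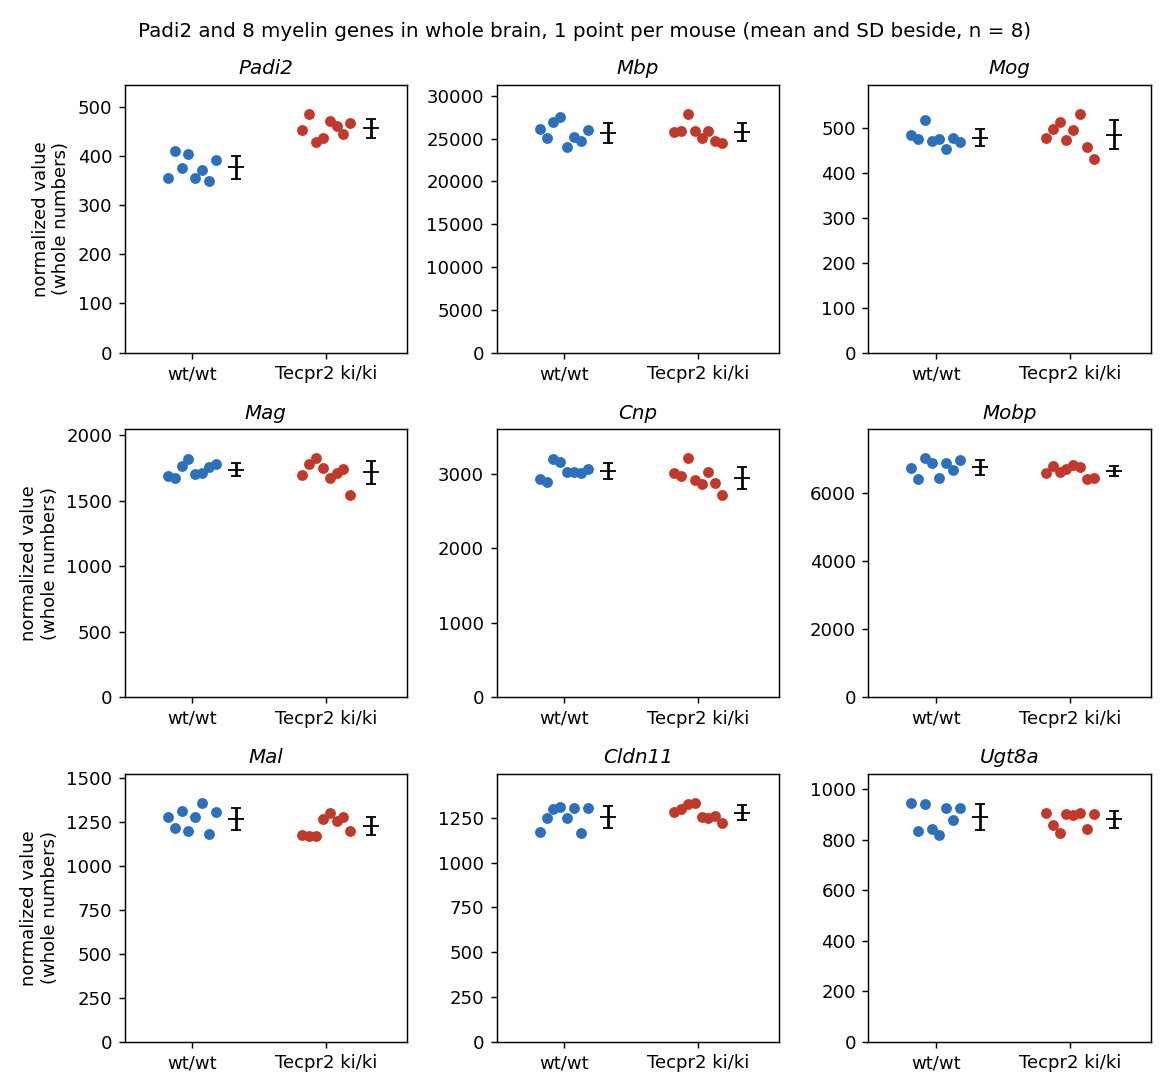
Normalized value (y axis, from 0) of Padi2 and 8 myelin genes in each of 8 wt/wt (blue) and 8 Tecpr2 ki/ki (red) mice, with the mean and SD of each genotype in black. The Tecpr2 ki/ki points of Padi2 lie between 429 and 486, above the wt/wt points at 348 to 409, whereas the genotypes overlap for each of the other genes.

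The compact myelin gene Mbp did not follow Padi2. Its value was 24508 at the lowest, 25816.5 at the median and 27931 at the highest in Tecpr2 ki/ki mice, and 24009, 25596.5 and 27494 in wt/wt mice. The groups overlapped along nearly the whole range, with 1 Tecpr2 ki/ki mouse above all wt/wt mice. For Mbp the log2 fold change was 0.00 (0.0027, SE 0.0306), and its 95% interval runs from -4.27% to 4.85%. Mobp, the other gene of a basic protein of compact myelin, had values of 6424, 6661 and 6824 (lowest, median and highest) in Tecpr2 ki/ki and of 6416, 6798 and 7023 in wt/wt mice. All 8 Tecpr2 ki/ki mice lay within the range of the wt/wt mice. For Mobp the log2 fold change was -0.02 (SE 0.0172), the narrowest interval of the 9 genes at -3.88% to 0.82%.

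Among the genes of sheath surfaces, Mog had values of 432, 487.5 and 533 (lowest, median and highest) in Tecpr2 ki/ki and of 454, 477 and 519 in wt/wt mice. Here the Tecpr2 ki/ki mice took the wider range, with 1 mouse above and 1 below all wt/wt mice. For Mog the log2 fold change was 0.02 (SE 0.0399, interval -4.16% to 7.03%). Mag, at the inner surface, had values of 1544, 1728 and 1827 in Tecpr2 ki/ki and of 1677, 1736.5 and 1819 in wt/wt mice. Its low end came from Tecpr2 ki/ki mouse 8, at 1544, while the next of that genotype was at 1673. Mag differed by -0.02 as a log2 fold change (SE 0.0259, interval -4.80% to 2.27%).

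Cnp, the gene of CNPase, had values of 2709, 2946.5 and 3211 (lowest, median and highest) in Tecpr2 ki/ki and of 2890, 3027 and 3204 in wt/wt mice. Below all wt/wt mice were 3 Tecpr2 ki/ki mice, and 1 was above all of them. For Cnp the log2 fold change was -0.04 (SE 0.0246), and its interval of -6.30% to 0.36% is the one that reaches least above 0. Mal showed a like picture, with values of 1172, 1228 and 1303 in Tecpr2 ki/ki and of 1184, 1279 and 1362 in wt/wt mice. Again 3 Tecpr2 ki/ki mice lay below all wt/wt mice, at 1172, 1173 and 1178. For Mal the log2 fold change was -0.05 (SE 0.0290, interval -6.93% to 0.86%), and -0.10 with the summed value of hindbrain and spinal cord Hox genes as a covariate.

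Cldn11, of the tight junctions between myelin layers, had values of 1219, 1270 and 1335 (lowest, median and highest) in Tecpr2 ki/ki and of 1165, 1272.5 and 1309 in wt/wt mice. The medians lay side by side, and 2 Tecpr2 ki/ki mice were above all wt/wt mice. Cldn11 differed by 0.03 on the log2 scale (SE 0.0281, interval -2.02% to 5.89%). Ugt8a, of galactosylceramide synthesis, had values of 825, 900.5 and 907 in Tecpr2 ki/ki and of 820, 901.5 and 947 in wt/wt mice, and all 8 Tecpr2 ki/ki mice lay within the range of the wt/wt mice. On the log2 scale Ugt8a differed by -0.01 (SE 0.0324, interval -5.24% to 3.65%).

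**Figure D2:**
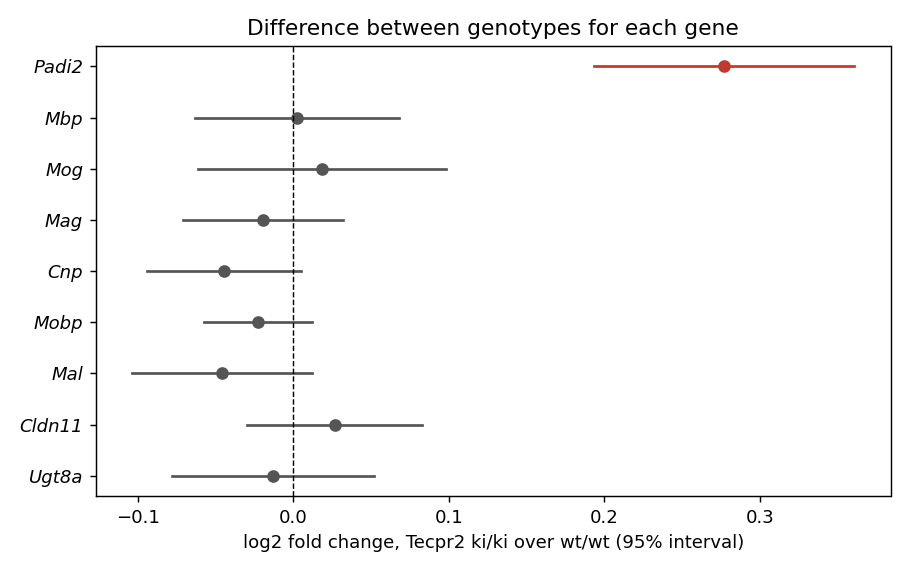
Log2 fold change of Tecpr2 ki/ki over wt/wt mice (x axis, point) with its 95% interval from limma (line) for the 9 genes, 8 mice a genotype. The interval of Padi2 (red) lies between 0.19 and 0.36, while those of the 8 myelin genes (grey) all include 0 and reach no further than -0.10 and 0.10.

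For each of the 8 myelin genes the interval included 0. Padi2 was chosen for its difference, so its interval is not set against theirs. The highest upper bound of the 8 was that of Mog, at 7.03% more. Of the 8 genes, 3 had a positive and 5 a negative log2 fold change, though the sign of Mbp, Mog, Mobp, Mag and Ugt8a turned with another covariate or with 1 mouse left out. Their median was -0.02, beside -0.001 over all 23244 genes tested. In the fit over all genes (limma, Benjamini-Hochberg adjusted p under 0.1), 0.133% of the genes tested were called, 0.0946% with the higher level in Tecpr2 ki/ki, and 0.0645% had every Tecpr2 ki/ki mouse above every wt/wt mouse. Of the 9 members, Padi2 was in each of these classes and the other 8 in none. Since Padi2 was chosen from this contrast, these counts describe the list and nothing is read from them. Among 11241 tested genes with a mean value of at least 100, Padi2 was one of 15 with a log2 fold change of its size or more. Nothing is read from this place either, for the same reason.

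To set Padi2 directly against myelin, the mean of log2(value + 1) over the 8 myelin genes was taken in each mouse. It was 11.11 ± 0.0373 (SD, n = 8) for Tecpr2 ki/ki and 11.13 ± 0.0398 (SD, n = 8) for wt/wt, which differ by -0.01. None of the Tecpr2 ki/ki mice was above all wt/wt mice in this mean. Padi2 minus the myelin mean was -2.28 ± 0.079 (SD, n = 8) for Tecpr2 ki/ki and -2.57 ± 0.0888 (SD, n = 8) for wt/wt, a difference of 0.29 on the log2 scale. Of the 8 Tecpr2 ki/ki mice, 7 were above all wt/wt mice in this difference. The exception was mouse 3, which had the lowest Padi2 and the highest myelin mean of its genotype. It lay at -2.405, just under wt/wt mouse 2 at -2.398.

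**Figure D3:**
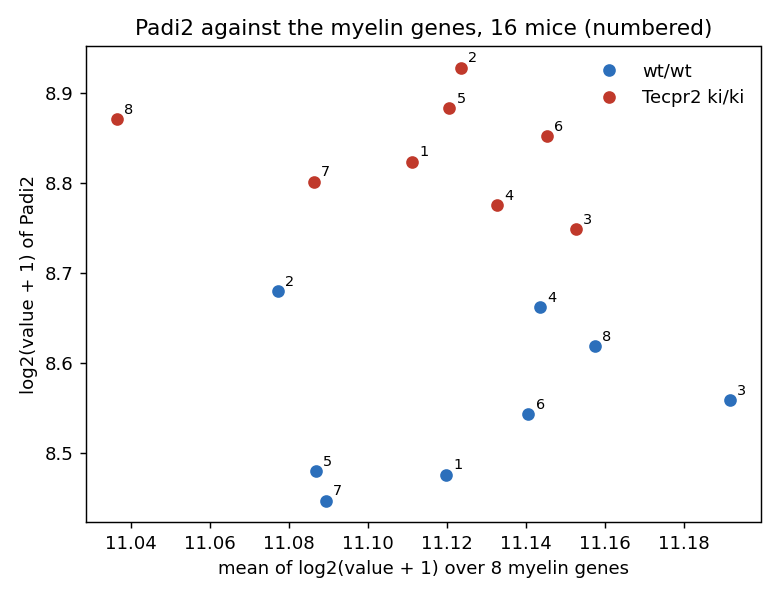
Log2(value + 1) of Padi2 (y axis) against the mean of log2(value + 1) over 8 myelin genes (x axis) in 8 wt/wt (blue) and 8 Tecpr2 ki/ki (red) mice, numbered as replicates. The genotypes separate along the y axis, while their myelin means, centred on 11.11 and 11.13, overlap along the x axis.

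Levels can be compared between genes only per length. Divided by the summed length of annotated exons (GENCODE M21, GRCm38), the values of wt/wt mice were highest for Mbp, at 3033 ± 137.4 per kilobase (SD, n = 8). They went down through Mobp at 985.8 ± 33.5, Cnp at 835.2 ± 29.3 and Cldn11 at 671.6 ± 32.3 to Mal at 456.6 ± 22.2 and Mag at 427.1 ± 12.1 per kilobase. Below these stood Mog at 281.2 ± 10.8, Ugt8a at 196 ± 11.5 and Padi2 at 75.1 ± 4.6 per kilobase. In this order, Mal and Mag overlapped in their ranges over the wt/wt mice, and no other neighbours did. In Tecpr2 ki/ki mice, Padi2 stood at 91 ± 3.8 per kilobase, and it was again the lowest of the 9. The exon length counts every annotated isoform, so that a gene with long minor isoforms comes out too low.

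Padi2 stands at the end of a cluster of deiminase genes on chromosome 4. In GRCm38, an earlier build than the GRCm39 of the authors' alignment, it lies from 140906344 to 140952586 on the plus strand. Padi1, Padi3, Padi4 and Padi6, its paralogs in skin, hair follicle, blood cells and the egg, lie upstream of it on the other strand. In whole brain these 4 genes were at or near 0, with a highest value of 3 for Padi1, 1 for Padi3, 2 for Padi4 and 4 for Padi6 in any mouse, and none passed the limit on low values. Of 21 other annotated genes within 250000 bases of Padi2 on either side, 10 were tested, 2 had an unadjusted p under 0.05 and 0 an adjusted p under 0.1 (limma, Benjamini-Hochberg). Over all genes tested, 6.08% had an unadjusted p under 0.05 and 49.5% a positive log2 fold change. Rcc2, at -0.09 (SE 0.0304), had the lowest adjusted p of limma, 0.459. Sdhb, the next protein-coding gene downstream, had values of 524 to 610 in Tecpr2 ki/ki and of 544 to 621 in wt/wt mice, with a log2 difference of -0.05 (SE 0.0372).

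The antisense gene Gm13031 overlaps the downstream end of Padi2 on the opposite strand, from 140947666 to 140957902. Its values were 9 to 18 in Tecpr2 ki/ki and 3 to 11 in wt/wt mice, which gives 0.68 on the log2 scale (SE 0.241, adjusted p = 0.544 by limma). The libraries were stranded, but it is not stated in the sources used here whether the counting used strand, so reads of the pair may have been exchanged. The means of Gm13031 were 12 in Tecpr2 ki/ki and 7.375 in wt/wt mice, beside 456 and 376.5 for Padi2. The snRNA gene Gm26226 inside Padi2 had values of at most 3. Of the other members, Cnp overlaps Dnajc7 on the opposite strand, which had values of 770 to 875 in Tecpr2 ki/ki and of 808 to 869 in wt/wt mice. Overlaps of Mbp and Mobp were with genes that had values of at most 23.

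The rest of the oligodendrocyte programme was read from lists of other genes, grouped by role. Of 15 other sheath proteins, 15 were tested and 0 passed in either direction at an adjusted p under 0.1 (limma, Benjamini-Hochberg), with 6 positive and 9 negative log2 fold changes and a median of -0.01. Gpr37, described below, was the only gene of the list with an unadjusted p under 0.05 (limma), beside 6.08% of all genes tested. An adjusted p under 0.1 was reached by 0.133% of all genes tested. Pllp, the gene of plasmolipin, had the highest log2 fold change of the list, at 0.08 (SE 0.0892).

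Gpr37, a receptor gene of oligodendrocytes, had the lowest log2 fold change of that list. Its values were 742, 765.5 and 841 (lowest, median and highest) in Tecpr2 ki/ki and 807, 850 and 919 in wt/wt mice. Of the Tecpr2 ki/ki mice 6 lay below all wt/wt mice, and 8 of 8 below the wt/wt median. Gpr37 differed by -0.13 on the log2 scale (SE 0.0331, adjusted p = 0.120 by limma), which misses the threshold. Without Tecpr2 ki/ki mouse 5 the adjusted p was 0.0544, without mouse 6 0.0610, and without wt/wt mouse 5, 2 or 6 it was 0.0844, 0.0849 and 0.0954 (limma, Benjamini-Hochberg). Leaving out any other mouse kept it above 0.1, and it was highest, at 0.318, without wt/wt mouse 1 (limma). With no filter on low values it was 0.291 (limma). With the microglia marker mean as a covariate, the log2 fold change of Gpr37 was -0.05.

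Of 12 genes of myelin lipid synthesis, 0 passed at an adjusted p under 0.1 (limma, Benjamini-Hochberg), 3 having an unadjusted p under 0.05 (6.08% of all genes), 1 positive and 2 negative. The median log2 fold change was -0.04, with 9 of the 12 negative. The extremes were Hmgcs1, of the first steps of sterol synthesis, at 0.06 (SE 0.0237) and the fatty acid elongase gene Elovl7 at -0.14 (SE 0.0604). Of 10 transcription factors of the lineage, 0 passed and 0 had an unadjusted p under 0.05 (limma), with 5 on either side of 0 and a median log2 fold change of -0.01. They ran from Zfp488, with a mean of 31 in Tecpr2 ki/ki and 36.25 in wt/wt mice (log2 fold change -0.23, SE 0.141), to Sox8 at 0.05 (SE 0.0503). Sox10 and Myrf, which drive myelin genes, had log2 fold changes of 0.02 (SE 0.0482) and 0.04 (SE 0.0317).

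Of 21 enzymes and other products of mature oligodendrocytes, 0 passed at an adjusted p under 0.1 (limma, Benjamini-Hochberg), 5 having an unadjusted p under 0.05 (6.08% of all genes), 4 positive and 1 negative. The median log2 fold change was 0.01. Carns1, which makes carnosine, came nearest to Padi2 in size, averaging 86.25 ± 10.5 (SD, n = 8) for Tecpr2 ki/ki and 73.38 ± 6.99 (SD, n = 8) for wt/wt. Carns1 differed by 0.23 on the log2 scale (SE 0.0899, adjusted p = 0.671 by limma), and 4 of 8 Tecpr2 ki/ki mice were above all wt/wt mice. The lowest was Ppp1r14a, an inhibitor subunit of a phosphatase, at -0.13 (SE 0.0787). Over the 8 myelin members and these 4 lists, 66 genes in all, 0 passed in either direction (limma, with 5 positive and 4 negative at an unadjusted p under 0.05, beside 6.08% of all genes). Of their log2 fold changes 28 were positive and 38 negative, beside 49.5% positive over all genes, and the median was -0.01.

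**Figure D4:**
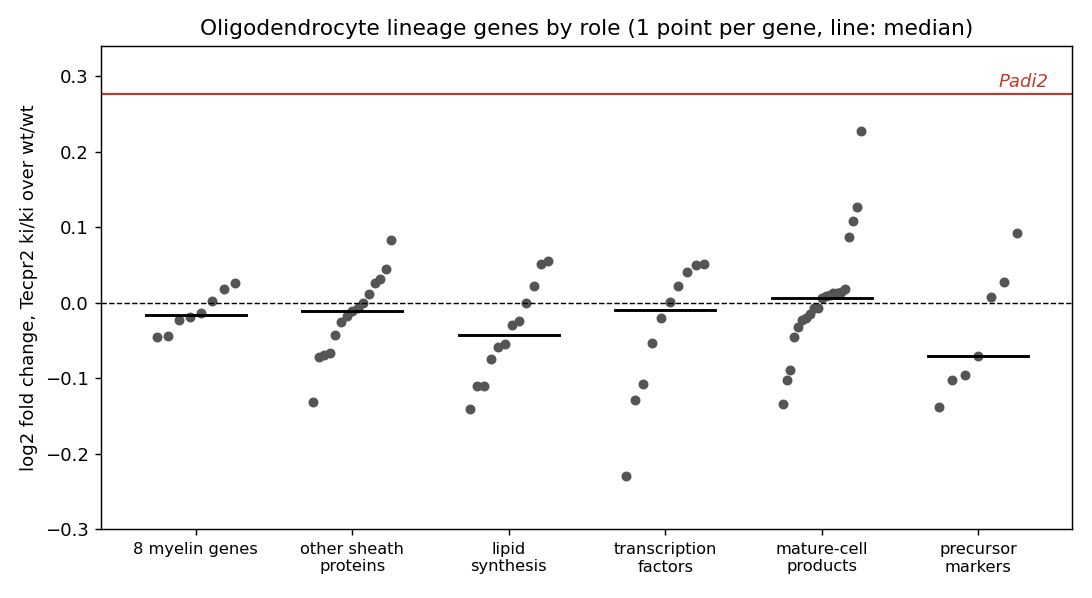
Log2 fold change of Tecpr2 ki/ki over wt/wt mice (y axis) of single genes (points) in 6 lists of oligodendrocyte genes by role, with the median of each list as a black line and Padi2 as a red line at 0.28. The lists centre between -0.07 and 0.01, and Carns1, at 0.23, is the point nearest to the Padi2 line.

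Substrates of the deiminase were read from the same fit. Gfap, in which 8 of 8 Tecpr2 ki/ki mice were above all wt/wt mice, rose by 0.58 as a log2 fold change (SE 0.0265, adjusted p = 4.67e-27 by limma). Vim, the other filament gene, had values of 369 to 471 in Tecpr2 ki/ki and of 371 to 452 in wt/wt mice, or 0.04 as a log2 fold change (SE 0.0440, adjusted p = 0.931 by limma). Mbp is given above. Citrulline in proteins was not measured in these libraries.

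Markers of astrocytes differed between the genotypes as well. The summed value of 6 astrocyte markers was 56780 to 59110 in Tecpr2 ki/ki and 53180 to 56690 in wt/wt mice, so that all 8 Tecpr2 ki/ki mice were above all wt/wt mice. Most of this sum was Slc1a2, with means of 45610 in Tecpr2 ki/ki and 43650 in wt/wt mice. Of the 6, Gfap, Aqp4 and Slc1a2 passed as higher (limma, Benjamini-Hochberg adjusted p under 0.1), beside 0.0946% of all genes. The others did not pass, the lowest being Gja1 at a log2 fold change of -0.005. Slc1a2 passed neither with no filter on low values nor under quantile normalization, which fixes the value of a gene at constant rank. The sum of 6 microglia markers was 1893 to 2020 in Tecpr2 ki/ki and 1739 to 1936 in wt/wt mice, with 0 of 6 passing (limma, 3 at an unadjusted p under 0.05, beside 6.08% of all genes) and 5 of 6 positive, beside 49.5%. With the microglia marker mean of each mouse as a covariate, the log2 fold change of Padi2 was 0.28.

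A list of 14 Hox genes that mark the hindbrain and spinal cord had summed values of 21 to 68 for Tecpr2 ki/ki (median 35.5) and 10 to 36 for wt/wt mice (median 24), with 4 Tecpr2 ki/ki mice above all wt/wt mice. Single genes of this list were near the limit on low values, which 3 of the 14 passed by their values in Tecpr2 ki/ki mice, and no test of them is given. Hoxb4, with the highest log2 fold change of these 3, had values of 4 to 12 in Tecpr2 ki/ki and of 0 to 6 in wt/wt mice, which overlap. Hoxb3 had means of 3.5 and 3.25 in the same order. The means of Hoxa7, Hoxc6 and Hoxc8, with values of at most 2, were lower in Tecpr2 ki/ki mice. With the summed Hox value as a covariate, the log2 fold change of Padi2 was 0.31, and with the myelin mean as a covariate it was 0.28. Both covariates, like that of microglia markers, were added after the data had been seen. Within genotypes, Padi2 had a Pearson's r of 0.02 with the myelin mean and of -0.04 with the microglia marker mean. A fit with either covariate therefore had to leave its log2 fold change near 0.28. The spread of Padi2 within genotypes was also close to what counting noise gives (SD 0.0753 against 0.0709 on the log2 scale). These fits thus cannot show a part of these cells and regions in the Padi2 result, and nothing is read from them. That part was not tested, and neither was that of astrocytes.

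How the members vary between mice of 1 genotype is a measure that the choice of Padi2 did not use. Deviations from the genotype means were taken on the log2 scale over all 16 mice. Mbp had an SD of 0.0617, against 0.0090 that counting noise gives at its depth, and Cnp one of 0.0619 against 0.0264. In these genes the mice differed by more than counting. For Padi2 the SD was 0.0753 against 0.0709, and for Mog 0.0778 against 0.0658, so that most of their spread within a genotype was of the size of counting noise.

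The myelin genes differed in how far these deviations went together. Pearson's r was 0.82 for Mag with Cnp, 0.77 for Mbp with Cnp and 0.67 for Mog with Cnp, and Mbp, Mog, Mag, Cnp, Mobp and Cldn11 had positive r in all pairs. Mal and Ugt8a stood apart, with r of 0.48 with each other and of -0.14 and -0.13 with Cnp. Mobp had positive r with genes of both kinds, at 0.50 with Cnp and 0.58 with Ugt8a. Over the 28 pairs of myelin genes the median r was 0.45, with 16 pairs above 0.4 and 7 at or below 0. All points share library, normalization and the tissue taken, and r over 16 mice is given as a description.

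**Figure D5:**
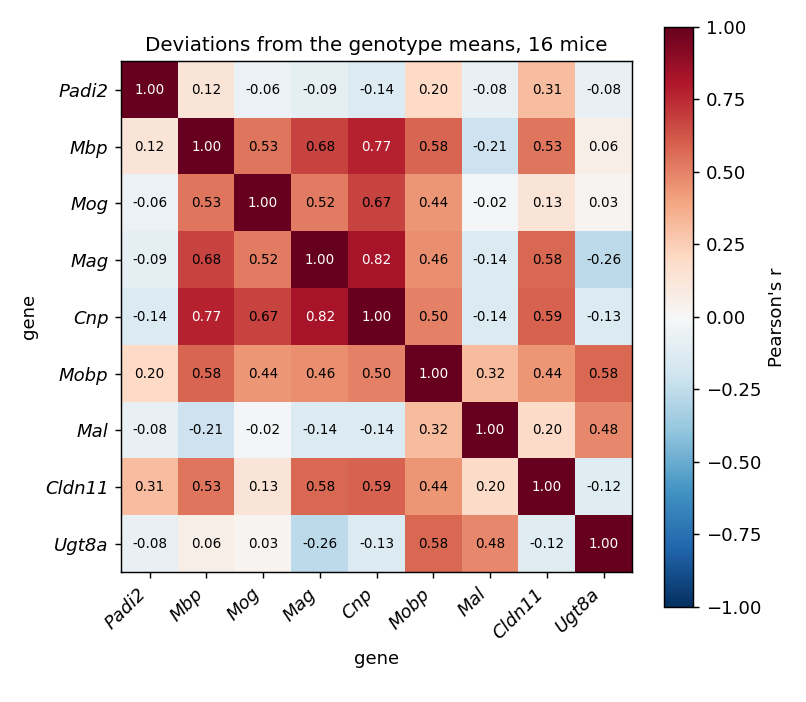
Pearson's r of deviations from the genotype means of log2(value + 1) between each pair of the 9 genes (both axes) over 16 mice, from -1 (blue) to 1 (red). The block from Mbp to Mobp is all positive and reaches 0.82 for Mag with Cnp, while the row of Padi2 stays between -0.14 and 0.31.

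Padi2 had an r of 0.02 with the myelin mean (Spearman's rho 0.03), and between -0.14 with Cnp and 0.31 with Cldn11 for single myelin genes. Within Tecpr2 ki/ki mice alone r was -0.29 and within wt/wt mice 0.21. The spread of Padi2 is near counting noise, and whether a relation with myelin could be seen at this depth was not tested. Its r was -0.29 with the summed Hox value, -0.04 with the microglia marker mean and 0.28 with the astrocyte marker mean.

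The genes whose deviations were most like those of Padi2, among 11241 tested genes with a mean value of at least 100, were Rdh13 (r = 0.805), Spag9 (r = 0.796), Mrpl2 (r = 0.769), Bcl2l1 (r = 0.765) and Prdm10 (r = 0.744). For the myelin mean they were Tuba1b (r = 0.916), Tspyl4 (r = 0.91), Ap2b1 (r = 0.886), Eno1 (r = 0.885) and Atg9a (r = 0.884). No oligodendrocyte gene of the lists is among either 5. The log2 fold changes of these 10 genes lay between -0.06 and 0.08. They were taken as the highest of 11241 values over 16 mice, and nothing is read from their size.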

How the data were processed

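The authors extracted total RNA from whole brain, removed ribosomal RNA and sequenced 1 stranded paired-end library per mouse. They named Trim Galore 0.6.10, cutadapt 3.4, STAR 2.7.10b (genome GRCm39), summarizeOverlaps for counting and DESeq2 1.40.2. The deposited values are of the unit score here, since the authors normalized them on a linear scale and rounded them to whole numbers, with a normalization not given in the sources used here. Rounding blurs low values. Tables of single mice held the values of the series table (16 of 16), and no pair of mice agreed within counting noise.

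Groups and replicate numbers came from the sample titles. A gene entered the test with a sum above 16 and a value above 5 in at least 4 mice of a genotype (23244 of 55404 genes; 52017 had a symbol). Genotypes were compared with limma 3.58.1 (trend and robust variance) under R 4.3.3 on log2(value + 1), a pseudocount of 1, with p-values adjusted by Benjamini-Hochberg over these genes and a threshold of 0.1. P-values set the difference between genotypes against the spread between mice, which limma moderates with that of other genes. Positions, exon lengths and symbols are from GENCODE M21 (GRCm38), promoters from RefSeq. Read depth was estimated from the steps in low values. Scripts were tested on simulated data. Python 3.11.15, numpy 2.4.6, pandas 2.3.3 and matplotlib 3.10.9 were used.

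The members and the lists were chosen with earlier results of these data known. Named are the members, the PADI family, Gfap and Vim, list genes that passed, the highest and lowest gene of each pathway list, the 5 genes most like Padi2 and the 5 most like the myelin mean, and genes next to Padi2. Sox10, Myrf, Bcas1, Pmp2, the single Hox genes and the overlapping genes were named after their values were seen. Other pseudocounts, scalings, filters and variance estimates, a replicate block, covariates and leaving out each mouse were tried. Some genes of the rule and of the lists are not reported here.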

Additional observations from a re-analysis of the deposited data

Results flagged for a closer look

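Mbp had a value of 27931 in Tecpr2 ki/ki mouse 3, while the other 7 mice of that genotype lay between 24508 and 25954. The gap to the nearest mouse was 0.578 of the whole range of the genotype, over Dixon's 95% limit for 8 samples. This was 1 of 22 groups of values looked at, and chance alone marks about 1 in 20. Without this mouse the log2 fold change of Mbp was -0.01. The same mouse had the highest Mag (1827) and Cnp (3211) of its genotype, and the highest summed Hox value of all mice (68). Their part in the value was not tested.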

How the results depend on the processing

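At the adjusted threshold of 0.1, 31 genes were called between the genotypes (limma). With no filter on low values 20 were called, with a replicate block 46, and with each mouse left out between 25 and 40. With the block the log2 fold change of Padi2 was again 0.277, which a block that holds both genotypes at each number cannot change. The replicate numbers do not pair the mice, since the deviations of same-numbered mice correlated over 0.1 in 1 of 8 pairs (median 0.019), and 2 of 8 Tecpr2 ki/ki mice correlated best with their own number. The log2 fold change of Padi2 lay between 0.27 and 0.31 under the other settings and between 0.26 and 0.29 with each mouse left out. The myelin mean differed by -0.02 to 0.00 (-0.0012) with each mouse left out, Padi2 relative to it by 0.27 to 0.31, and their within-genotype r lay between -0.11 and 0.22. With values rescaled to the mean total this r was -0.149, and under quantile normalization it was -0.153. For single myelin genes no setting moved the log2 fold change by more than 1 SD between mice, but near 0 signs turned. This limit is wide, since the SD is above the SE of each of these genes (for Mal 0.0668 against 0.0290). Leaving out 1 mouse of 8 also moves a mean little, so nothing is read from staying within it. With the summed Hox value as a covariate, Mal moved to -0.10, Ugt8a to -0.05, Cnp to -0.06 and Mobp to -0.04, while Mbp stood at -0.03, Mog at -0.003 and Cldn11 at 2e-04, and with the microglia marker mean Mobp stood at 0.003 and Ugt8a at 0.04. The called astrocyte gene Slc1a2, at 0.06, had an adjusted p of 0.202 with no filter, 0.136 with the Hox and 0.433 with the microglia covariate (limma). The cause was not tested. Under quantile normalization its log2 fold change was 0. That method gives the same value to the same rank, so a gene at constant rank cannot differ, and nothing is read from this 0. The covariates were chosen after seeing the data. Depth limits what can be said of the paralogs of Padi2, which were near 0.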

Other observations

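Of 7 markers of oligodendrocyte precursors and newly formed oligodendrocytes, 0 passed at an adjusted p under 0.1 (limma, Benjamini-Hochberg), 3 having an unadjusted p under 0.05, beside 6.08% of all genes tested. The median log2 fold change was -0.07, and 4 of the 7 were negative. Gpr17, a receptor of cells about to make myelin, had the lowest log2 fold change, at -0.14 (standard error, SE, 0.0474, adjusted p = 0.531 by limma), averaging 394.6 ± 29.1 (SD, n = 8) for Tecpr2 ki/ki and 434.6 ± 38.7 (SD, n = 8) for wt/wt. Bcas1, which marks cells in active myelination, had means of 1384 ± 54.7 (SD, n = 8) and 1454 ± 52.2 (SD, n = 8) in the same order, a log2 fold change of -0.07 (SE 0.0266). Cspg4, of the precursors themselves, had the highest, at 0.09 (SE 0.0442). Bcas1 was named after its values were seen.

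Of 6 genes of peripheral myelin and Schwann cells, 4 were tested and 0 passed (limma, Benjamini-Hochberg adjusted p under 0.1). At an unadjusted p under 0.05 there were 0, beside 6.08% of all genes tested. The 4 tested genes ran from Egr2 at -0.03 (SE 0.186) to Prx at 0.09 (SE 0.2) on the log2 scale. Of 4 endothelial markers 0 passed (limma, 0 at an unadjusted p under 0.05), from Cldn5 at -0.02 (SE 0.0517) to Pecam1 at 0.03 (SE 0.0629). Of 6 neuron markers 0 passed (limma, 1 at an unadjusted p under 0.05, beside 6.08% of all genes tested). The neuron markers ran from Snap25 at -0.05 (SE 0.0490) to Rbfox3 at 0.02 (SE 0.0233), with a median of -0.03. Of these 6, 5 were negative and 1 positive, beside 49.5% positive over all genes tested.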
